A study of Mus musculus with 415 samples.

Results

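The COUP-TF loci are the chromosomal surroundings of Nr2f1 (COUP-TFI) and Nr2f2 (COUP-TFII). They were examined in a table of open chromatin in single cells. Members were all regions of the table, on the mouse build mm9, that overlap a 200 kb window on chromosome 13 from 78230000 to 78430000 (Nr2f1) or a 210 kb window on chromosome 7 from 77400000 to 77610000 (Nr2f2). This gave 12 of the 23180 regions, 6 at each locus. The cells came from R1 mouse embryonic stem cells, an established line, kept with 15% Knockout Serum Replacement and LIF at 1000 U/ml and then aggregated in hanging drops for 48 hours. The resulting embryoid bodies, clumps of differentiating cells, were then treated for 4 days with retinoic acid, at 0.5 mM according to the labels. Accessibility was read by single-cell ATAC-seq on a Fluidigm C1 chip, where the Tn5 transposase inserts sequencing adapters into open DNA. Each sample is 1 cell, all of the same treatment and day, and the labels name no untreated cells and no separate cultures. The cells therefore count as 1 sample, and differences are given with counting intervals and no p-value.

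Nr2f1 and Nr2f2 encode COUP-TFs, orphan nuclear receptors that bind DNA mostly as dimers on repeats of the hexamer AGGTCA. They can bind the sites used by retinoic acid receptors and can pair with their partner RXR, and in many settings they repress transcription. Both genes are known to be induced by retinoic acid in embryonal carcinoma and embryonic stem cells. In the embryo, Nr2f1 is best known from the patterning of the neocortex and from neural crest, and Nr2f2 from veins, atria and mesenchyme, while both are also active in parts of the developing brain.

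In the RefSeq annotation of GRCm38.p6, a later build than the table's, the loci are built alike. Nr2f1, on the minus strand, spans 9903 bp, and a long non-coding RNA gene on the plus strand, A830082K12Rik, overlaps its start by 857 bp. Nr2f2 spans 14801 bp on the minus strand, and the plus-strand non-coding RNA gene B130024G19Rik overlaps its start by 1364 bp. ATAC-seq carries no strand, so accessibility at such a start cannot be assigned to either gene of the pair. The nearest protein-coding genes are Fam172a, 22.7 kb below Nr2f1, and Arrdc3, 2685 kb above it. For Nr2f2 they are Arrdc4, 1603 kb below, and the predicted gene Gm44812, 142.4 kb above. Genes were not placed on mm9 here, so whether a region lies in a promoter, exon, intron or outside the genes is not stated, and distances are counted from the middle of each window.

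The sequences before the annotated starts are shown because 1 start, the upstream start of Nr2f1, stands apart from the other listed starts of the COUP-TF genes. They are the 250 bases upstream of each start that RefSeq lists for the genes on GRCm38.p6, 2 for Nr2f1 and 1 for Nr2f2, read on the minus strand. Capitals mark CG dinucleotides.
Nr2f1, upstream start, chr13:78198874-78199123: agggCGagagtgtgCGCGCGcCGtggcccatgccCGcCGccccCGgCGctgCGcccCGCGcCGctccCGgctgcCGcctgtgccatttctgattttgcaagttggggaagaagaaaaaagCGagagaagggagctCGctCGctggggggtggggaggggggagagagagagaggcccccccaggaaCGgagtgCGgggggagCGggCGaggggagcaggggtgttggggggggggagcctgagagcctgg
Nr2f1, internal start, chr13:78196450-78196699: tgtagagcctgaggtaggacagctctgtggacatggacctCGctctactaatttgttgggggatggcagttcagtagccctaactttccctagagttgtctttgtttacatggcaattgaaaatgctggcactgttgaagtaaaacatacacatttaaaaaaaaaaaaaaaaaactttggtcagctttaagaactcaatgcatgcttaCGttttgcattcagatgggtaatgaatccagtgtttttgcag
Nr2f2, chr7:70366747-70366996: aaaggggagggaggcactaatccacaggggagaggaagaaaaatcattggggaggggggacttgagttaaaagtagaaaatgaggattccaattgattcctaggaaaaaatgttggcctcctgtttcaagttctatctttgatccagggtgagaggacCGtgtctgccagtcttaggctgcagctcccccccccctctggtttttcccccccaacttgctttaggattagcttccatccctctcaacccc
The upstream start of Nr2f1 is preceded by 22 CG dinucleotides at a GC content of 72%, the internal start by 2 at 39.6%, and the start of Nr2f2 by 1 at 50%. Over 32851 listed starts, the median is 6 CG dinucleotides (quartiles 2 and 16) and the median GC content 52.4%. Half-sites of nuclear receptors, 4 hexamers in all, were searched on both strands. The hexamer AGGTCA was found before 14.02% of all listed starts. The hexamer GGGTCA was found before 11.6% of them. The hexamer AGTTCA was found before 11.8%, and GGTTCA, the last of the 4 hexamers, before 8.85%. At least 1 of the 4 stood before 38.6% of the listed starts. Of the COUP-TF starts, only the internal start of Nr2f1 was preceded by any of them, a single AGTTCA. These letters were not aligned to the table's regions.

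The deposited values are signal that fits aligned bases summed over each region. Any value above 0 counted as open. The most common of these values (37.6% of them) was taken as 1 fragment, which is a pair of reads of 74 bases. Cells had 756 to 12267 open regions, with a median of 3928, so a value of 0 may be a closed region or a missed fragment. Every region of the table was open in at least 31 cells, and rarer regions were not analysed here. None of the 12 members was among the 14 regions of very high signal in the table.

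The Nr2f1 locus was open at 1 distant wide region and at a tight group on the other side of the window's middle. The wide region, at -27.6 kb (chromosome 13 from 78301473 to 78303252, 1779 bp), was open in 26.02% of all cells (exact Clopper-Pearson 95% interval 21.9% to 30.5%). The remaining 5 regions lay between 6.75 and 17.2 kb above the middle, 0.896 to 3.84 kb apart from each other, and 33.4 kb away from the wide region. Within that group, the region at 12.9 kb (78342568 to 78343272, 704 bp) was the most often open, in 80 cells (19.3%, 15.6% to 23.4%). The region at 9.87 kb (78339697 to 78340042) followed with 62 cells (14.9%, 11.7% to 18.7%). The 3 remaining regions were narrow and less often open. The region at 11.1 kb (78340938 to 78341248, 310 bp) was open in 47 cells (11.3%, 8.44% to 14.8%), that at 6.75 kb (78336640 to 78336868) in 41 cells (9.88%, 7.18% to 13.2%), and that at 17.2 kb (78347107 to 78347313) in 34 cells (8.19%, 5.74% to 11.3%). The intervals of the regions at -27.6 and 12.9 kb overlap, so their order is not established, while the region at -27.6 kb lies above the other 4 by intervals that do not meet.

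The Nr2f2 locus was more spread out, over 93.1 kb against 45.8 kb at Nr2f1, and 1 region near the window's middle stood out. This region, at 1.68 kb (chromosome 7 from 77506211 to 77507140, 929 bp), was open in 32.5% of all cells (28.04% to 37.3%). The region at -8.94 kb (77495762 to 77496356, 594 bp) was open in 70 cells (16.9%, 13.4% to 20.8%). The other 4 were open in similar shares whose intervals overlap. The region at 64 kb (77568513 to 77569417, 904 bp) was open in 48 cells (11.6%, 8.65% to 15.04%). The region at -13.7 kb (77491141 to 77491478) was open in 45 cells (10.8%, 8.02% to 14.2%) and that at -28.3 kb (77476336 to 77477087, 751 bp) in 44 cells (10.6%, 7.81% to 13.97%). The region at 9.59 kb (77514319 to 77514856, 537 bp) was open in 33 cells (7.95%, 5.54% to 10.99%). The most open region was thus nearest to the middle of the window at Nr2f2 and farthest from it at Nr2f1.

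**Figure D1:**
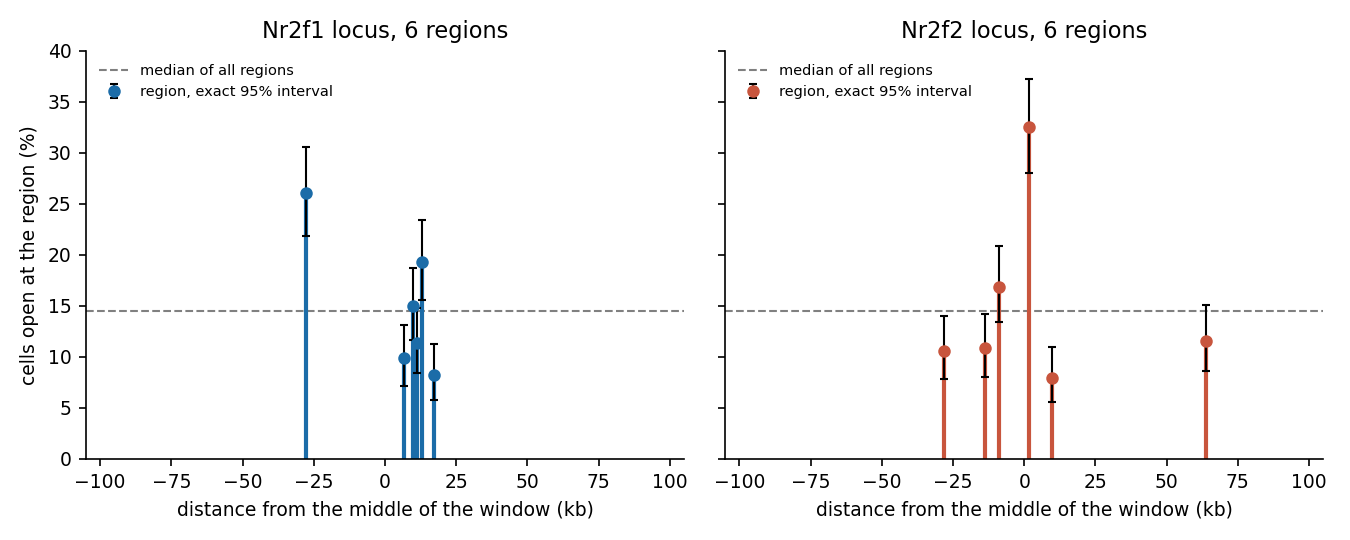
Share of all cells open at each region (vertical axis, percent) by distance from the middle of the window (horizontal axis, kb), for the Nr2f1 and the Nr2f2 locus. Black error bars are exact 95% intervals that cover the counting of cells only, and the dashed line is the median over all regions, 14.5%. The highest points are 26.02% at -27.6 kb for Nr2f1 and 32.5% at 1.68 kb for Nr2f2.

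Neither locus was unusually open for the table. The median member was open in 13.1% of cells at Nr2f1 and in 11.2% at Nr2f2, against 14.5% over all regions. In all, 2 of the 12 members, 1 at each locus, were open in at least 25% of cells, which 22.6% of all regions reached. Width goes with this share over the table, so members are also set beside regions of like width. Of the 5 members under 400 bp, 4 were at or above the 8.92% that is the median of the 2339 regions of that width, and 3 exceeded their upper quartile of 10.6%. Among the 4 members of 400 to 800 bp, 2 reached the median of 12.05%. Of the 3 members of 800 bp to 2 kb, 2 reached the median of 20.96%, and the Nr2f2 region at 64 kb did not.

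Signal per open cell was low at both loci. The median was at most 1 fragment in every member, and the highest value in any cell was 4.73 fragments at Nr2f1 (the -27.6 kb region) and 5 fragments at Nr2f2 (the 1.68 kb region). More than 1 fragment was found in 21.5% of open values at Nr2f1 and 24.8% at Nr2f2, against 29.5% over all regions. The Nr2f2 region at 1.68 kb was the highest member by this measure too, with 34.8% of its open cells, and the narrow Nr2f1 region at 6.75 kb (9.76%, 4 of 41) and the Nr2f2 region at 9.59 kb (9.09%, 3 of 33) were the lowest.

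Both windows held more regions than most 200 kb windows with a region, with gaps on either side. Whether their surroundings are sparse for the table was not measured. A 200 kb window that held any region held a median of 2 (quartiles 1 and 4), and 12.2% of the 7831 such windows held 6 or more. Beyond the Nr2f1 window the next regions were 269.1 kb below the lowest member (open in 13.5% of cells) and 219.2 kb above the highest (17.1%). At Nr2f2 they were 226.6 kb below and 90.1 kb above, each open in 7.95% of cells. Within 1 Mb to either side of the window's middle lay 16 regions at Nr2f1 and 15 at Nr2f2, so the members made up a large part of them.

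At least 1 region was open in 52.8% of cells (47.8% to 57.7%) at Nr2f1 and in 55.7% (50.7% to 60.5%) at Nr2f2. These shares follow depth. With the cells divided by depth into 3 sets of like size, they were 21.7% at Nr2f1 and 30.4% at Nr2f2 in the shallowest set (756 to 2838 open regions). They were 54.3% and 60.1% in the middle set and 82.01% and 76.3% in the deepest set (4934 to 12267 open regions). To correct for depth, the chance of a region being open in a cell was fitted from the region's total and the cell's total of open regions. At Nr2f1 the shallowest cells held 35 openings (a region open in a cell) where 54.6 were expected, a ratio of 0.641 (counting interval 0.446 to 0.891). The deepest cells held 230 where 207.7 were expected, a ratio of 1.11 (0.969 to 1.26). At Nr2f2 the ratios were 0.930 (0.695 to 1.22) and 0.982 (0.852 to 1.13). Over all 20978 regions open in at most 35% of cells the ratio was 0.992 in the shallowest and 1.0 in the deepest cells.

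How many regions of a locus were open in the same cell was close to what depth gives at Nr2f2 and slightly more spread at Nr2f1, with intervals that include 1. No region of Nr2f1 was open in 47.2% of cells, 1 in 29.4%, 2 in 13.7% and 3 in 6.75%, and 3 or more were open in 40 cells where 29.6 were expected (ratio 1.35, 0.964 to 1.84). At Nr2f2, no region was open in 44.3% of cells, 1 in 31.1%, 2 in 16.9% and 3 in 5.78%, and 3 or more were open in 32 cells with 28.8 expected (ratio 1.11, 0.761 to 1.57). All 6 regions of Nr2f1 were open together in 1 cell, and no cell had all 6 of Nr2f2 open. The 12 cells with at least 4 open Nr2f1 regions were deep ones, with a median of 9464.5 open regions.

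**Figure D2:**
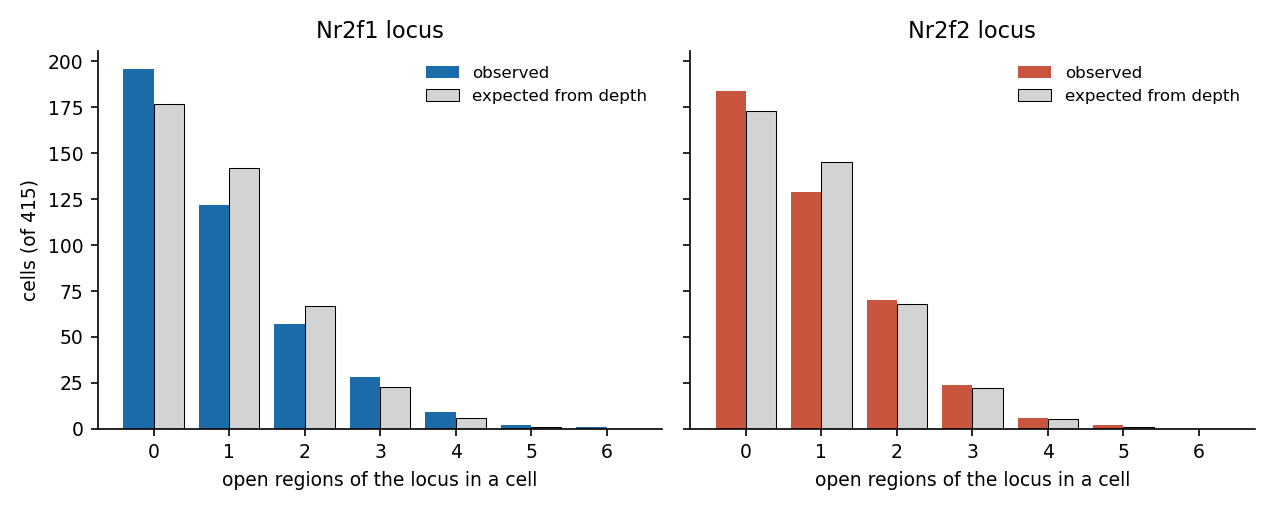
Number of cells (vertical axis) by how many of the locus's 6 regions were open in the cell (horizontal axis), observed (coloured) and expected from depth (grey), for each locus. The coloured bar stands above the grey one at 0 and below it at 1 at both loci, and 40 cells had 3 or more regions open at Nr2f1 and 32 at Nr2f2.

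Taken pair by pair, the 15 pairs of Nr2f1 regions were open together 230 times where depth gives 181.1, a ratio of 1.27 (counting interval 1.11 to 1.45). The 15 pairs of Nr2f2 regions gave a ratio of 1.11 to the 177.6 expected (0.965 to 1.28). Pairs in 1 cell are not independent of each other, so these intervals are too narrow. The ratio was above 1 in 13 of 15 pairs at Nr2f1 and in 10 of 15 at Nr2f2, where 62% of all pairs of the table under 100 kb apart were above 1. It reached 1.5 in 4 pairs at Nr2f1 and in 0 at Nr2f2, where 7.97% of all such pairs did. Without the 5 cells with most openings at the loci, the Nr2f1 ratio was 1.07 (0.922 to 1.24), although leaving out such cells lowers it by construction. It was 1.56 (1.29 to 1.87) among cells with lower numbers in their titles and 1.06 (0.875 to 1.27) among those with higher ones. In cells at or above the median depth it was 1.17 (1.01 to 1.34). The expected number rests on the depth fit, and Nr2f1 openings were 0.641 times the fit in the shallowest cells and 1.11 times in the deepest. The part of this misfit in the Nr2f1 ratio was not tested. No single pair among the 30 had an interval that left out 1. The largest ratio within Nr2f1 was that of the neighbouring regions at 6.75 and 9.87 kb, open together in 15 cells with 8.46 expected (1.77, 0.993 to 2.93). Within Nr2f2 it was that of the regions at -8.94 and 9.59 kb, with 11 cells and 7.68 expected (1.43, 0.715 to 2.56). The regions at 1.68 and 9.59 kb of Nr2f2, although neighbours, were open together in 12 cells with 14.2 expected (0.848, 0.438 to 1.48).

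Over the table, such ratios are higher for closer pairs. Pairs under 5 kb apart had a pooled ratio of 1.13 over all 1735 such pairs of the table, and the 6 Nr2f1 pairs at this distance had 1.39 (1.11 to 1.71). The single Nr2f2 pair, at -13.7 and -8.94 kb, had 1.25 (0.665 to 2.14). At 5 to 20 kb, the ratio was 1.36 (0.962 to 1.87) in 4 Nr2f1 pairs and 1.14 (0.932 to 1.39) in 6 Nr2f2 pairs, against 1.09 in all 7340 pairs. At 20 to 100 kb it was 1.16 (0.952 to 1.41) in 5 Nr2f1 pairs and 1.06 (0.850 to 1.32) in 8 Nr2f2 pairs, against 1.05 in 36104 pairs. Correlations of depth-corrected values over all cells were weak throughout, with a mean of 0.0317 within Nr2f1 and 0.0212 within Nr2f2. They describe cells that share the library preparation and the fit.

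Between the loci, co-opening counted by pairs was slightly above what depth gives. The 36 pairs of a Nr2f1 and a Nr2f2 region were open together 521 times with 449.8 expected, a ratio of 1.16 (1.06 to 1.26). This interval is too narrow as well, since pairs in 1 cell are not independent. All pairs of a chromosome 13 and a chromosome 7 region gave 0.993. The ratio exceeded 1 in 27 of the 36 pairs, where 47.7% of 1551252 chromosome 13 and chromosome 7 pairs did, and reached 1.5 in 3 of them, where 4.1% of those pairs did. The highest was that of the Nr2f1 region at 17.2 kb with the Nr2f2 region at 9.59 kb, which are the least often open of their loci, with 7 cells and 3.82 expected (1.83, 0.737 to 3.78). The lowest was that of the Nr2f1 region at -27.6 kb with the same Nr2f2 region, with 8 cells and 11.5 expected (0.693, 0.299 to 1.37). The cell with the most openings, 5 at each locus among 12267 open regions, alone held 25 of the 521. Without it the ratio was 1.12, and without the 5 cells with most openings it was 1.03. Such a removal again lowers the ratio by construction, so it cannot show on how many cells the excess rests. In cells at or above the median depth, the ratio between the loci was 1.09 (0.993 to 1.19), an interval that includes 1.

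**Figure D3:**
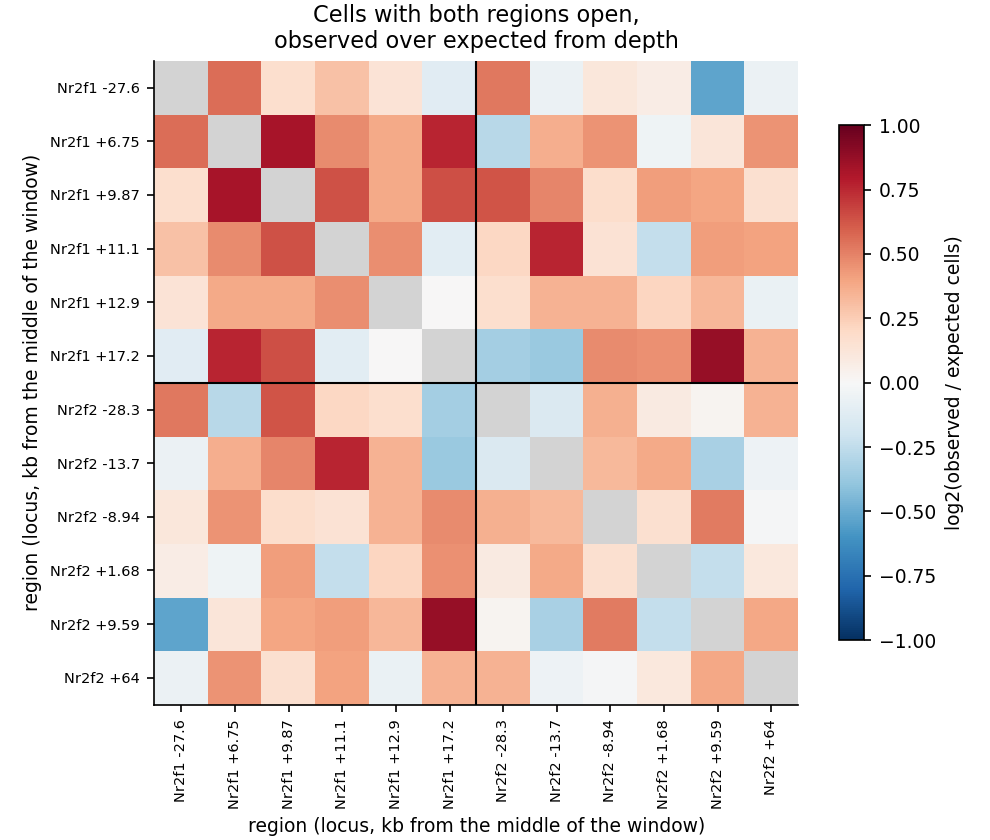
Cells with both regions of a pair open, observed over expected from depth, on a log2 colour scale for all pairs of the 12 regions, ordered by locus and by kb from the middle of the window. Black lines divide Nr2f1 from Nr2f2 and the diagonal is left out. The ratios run from 0.925 to 1.77 within Nr2f1, from 0.797 to 1.43 within Nr2f2 and from 0.693 to 1.83 between the loci.

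Counted by cell, both loci were open in slightly more cells than depth gives, and whether they open together was not tested. Both had an open region in 150 cells (36.1%, 31.5% to 40.97%), Nr2f1 alone in 69 (16.6%), Nr2f2 alone in 81 (19.5%), and neither in 27.7%. With each locus's total kept and depth corrected, 139.6 cells with both were expected, a ratio of 1.07 (0.909 to 1.26). This interval lets the count vary freely although both totals are kept, so it is too wide to decide the question. In the shallowest, the middle and the deepest cells this ratio was 0.935 (0.498 to 1.60), 1.21 (0.893 to 1.59) and 1.03 (0.829 to 1.27). The correlation of the depth-corrected scores of the loci over all cells was 0.117. Pairs of 200 kb windows with at least 4 regions on different chromosomes had a median of -0.00194, with 0.0931 as their 95th percentile. The titles number the cells, with no word on what the order stands for. The correlation was 0.194 among cells with the lower title numbers and 0.0424 among the others, and the difference was not tested.

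Groups of cells differed at Nr2f1. Cells were divided into 3 clusters from autosomes other than 7 and 13, so that no region of either locus entered the clusters. Cluster 1 held 52.2% of the clustered cells, cluster 2 held 24.6% and cluster 3, with 96 cells, 23.2%, and 1 cell with under 1000 fragments was left out. The clusters are numbered by size and were not named, because marker genes were not placed on mm9. Their median depths were 3245.5, 3742.5 and 5480 open regions, and 74.5% of cluster 2 had title numbers in the lower range, against 40.7% of cluster 1 and 43.8% of cluster 3.

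Cluster 2 had few open Nr2f1 regions. It held 45 openings where 88.8 were expected from depth, a ratio of 0.507 (0.370 to 0.678), while the other cells were at 1.16 times the 283.1 expected (1.03 to 1.29). The ratio of these, cluster 2 over the other cells, was 0.439 (counting interval 0.314 to 0.601). Of its cells 34.3% (25.2% to 44.4%) had an open Nr2f1 region, against 58.97% (53.3% to 64.5%) of the other cells. Among windows of 200 kb on chromosomes 7 and 13 with at least 4 regions, the same ratio had a median of 1.0 and a 5th percentile of 0.467. The ratio was 0.431 (0.283 to 0.637) among the lower numbers and 0.454 (0.237 to 0.794) among the higher ones.

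All 6 Nr2f1 regions were less often open in cluster 2 after depth correction, by unequal amounts. The region at 17.2 kb was open in 0 cells of the cluster, which allows a share of up to 2.94% when 3 cells stand in for 0 (the exact interval reaches 3.55%), against 34 other cells (10.9%, 7.67% to 14.9%). The region at 9.87 kb was open in 5 cells of cluster 2 (4.90%, 1.61% to 11.1%) against 57 other cells (18.3%, 14.1% to 23.01%), a depth-scaled ratio of 0.281. The region at 6.75 kb was open in 3 cells (2.94%) against 38 (12.2%), a ratio of 0.254, and that at 11.1 kb in 6 cells (5.88%) against 41 (13.1%), a ratio of 0.471. The most widely open regions differed least, with 13 cells (12.7%) against 67 (21.5%) at 12.9 kb, a ratio of 0.617, and 18 cells (17.6%) against 90 (28.8%) at -27.6 kb, a ratio of 0.630. Calls, lower or higher, needed a depth-scaled difference of at least 2-fold and exact intervals apart from each other. By this rule 2 of the 6 Nr2f1 regions were lower in cluster 2, those at 9.87 and 17.2 kb, as were 11% of the 2537 regions of chromosomes 7 and 13. None of the 12 members was called higher in cluster 2, where 8.16% of those regions were. The median ratio was 0.376 over the Nr2f1 members and 0.958 over the Nr2f2 members, against 0.929 over those regions. With the cells thinned at random to 1500 open regions each, which leaves out shallower cells, no member was called in cluster 2, where 1.18% of those regions were lower and 4.73% higher. In the thinned cells the Nr2f1 region at 11.1 kb was not lower, at 1.21 (3 cells of cluster 2 against 7 other cells). The other Nr2f1 regions ran from 0 at 17.2 kb to 0.498 at 12.9 kb.

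At Nr2f2, the locus as a whole was close to what depth gives in cluster 2. Cluster 2 held 83 Nr2f2 openings with 89.7 expected, the other cells 1.02 times the 285.2 expected, and the ratio was 0.904 (0.699 to 1.16). An open Nr2f2 region was found in 54.9% (44.7% to 64.8%) of cluster 2 and in 56.1% (50.4% to 61.7%) of the other cells. The intervals of the Nr2f1 and Nr2f2 ratios, which can count 1 cell several times and may be too narrow, do not meet over all cells. They do meet among the lower title numbers, where Nr2f2 was at 0.767 (0.554 to 1.05). They also meet among the higher ones, where Nr2f2 was at 1.08 (0.678 to 1.65), with more than 1 fragment required, and in thinned cells. With 1 sample, the difference between the loci was not tested. At the 5 regions from -28.3 to 9.59 kb the depth-scaled ratios ran from 0.920 to 1.19. The region nearest the middle, at 1.68 kb, was open in 32 cells (31.4%, 22.5% to 41.3%) of cluster 2 and in 33.01% of the other cells (27.8% to 38.5%). The region at 64 kb was lower, open in 4 cells (3.92%, 1.08% to 9.74%) of cluster 2 and 44 other cells (14.1%, 10.4% to 18.5%), a ratio of 0.292, and it was the only Nr2f2 member called lower there. In the thinned cells, with 1 to 4 open cells of cluster 2 behind each ratio, further Nr2f2 regions were low there, with 0.403 at -28.3 kb, 0.201 at -13.7 kb and 0.537 at -8.94 kb, while the region at 1.68 kb was at 1.36 (14 cells). In cluster 2, 33 cells had Nr2f2 open and Nr2f1 closed, where 24.1 were expected, and 12 had the reverse, where 21 were expected. These expected counts use locus totals over all cells, so the split restates the low Nr2f1 level of cluster 2. It does not show how the loci go together within the cluster.

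**Figure D4:**
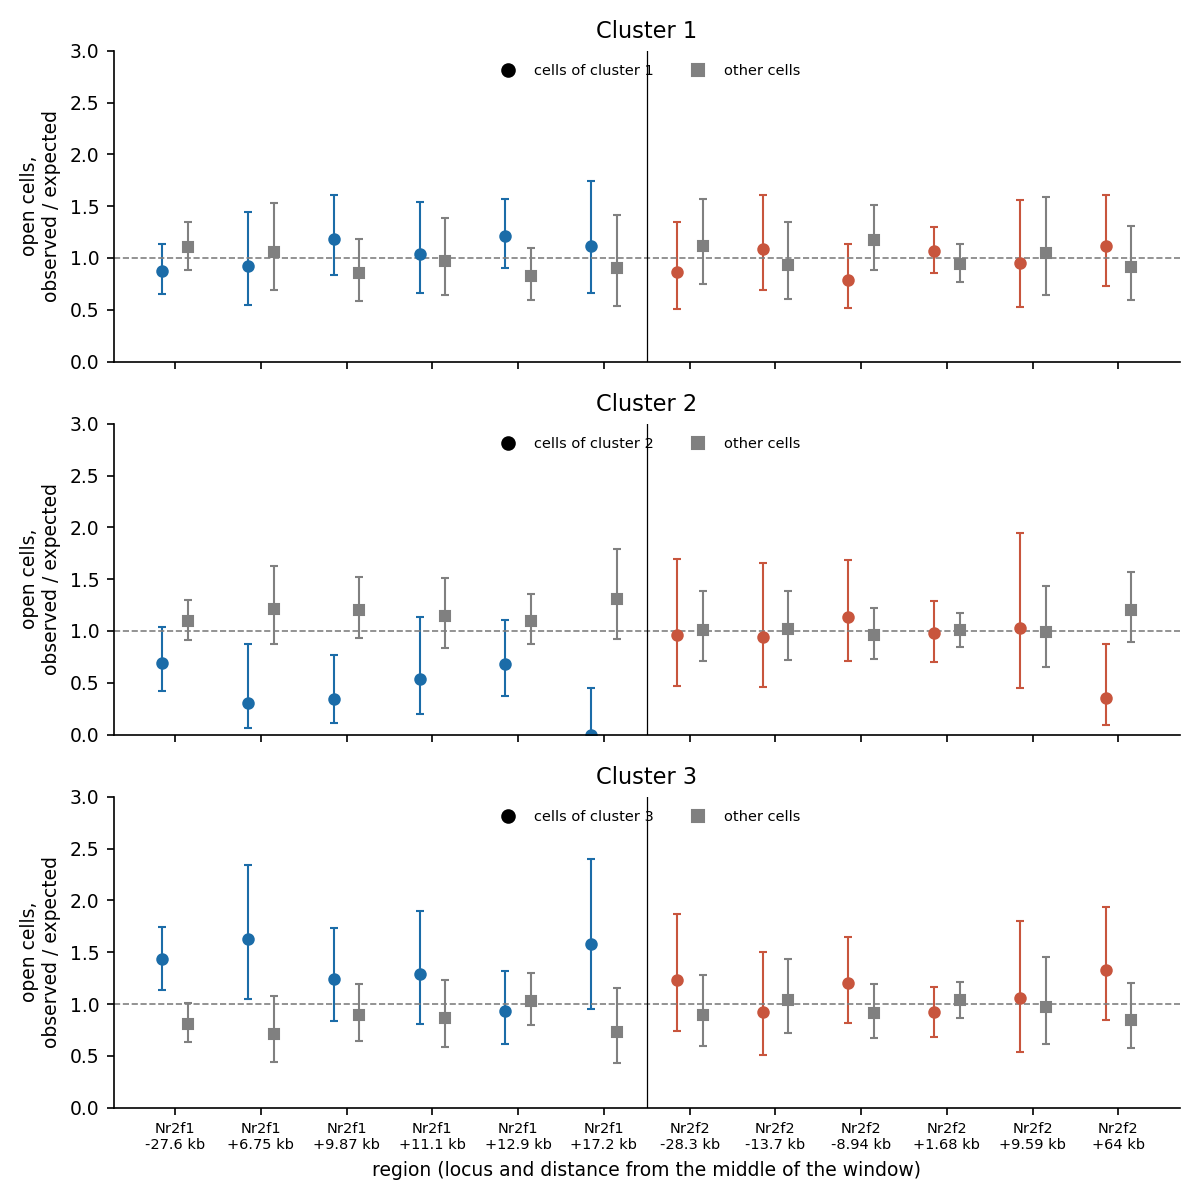
Cells open at each of the 12 regions, observed over expected from depth (vertical axis), in the cells of a cluster (coloured circles) and in the other cells (grey squares), with regions ordered by locus and distance. Error bars are exact 95% intervals of the share divided by the expected share. In cluster 2 all 6 Nr2f1 regions and the Nr2f2 region at 64 kb lie below 1, while the other 5 Nr2f2 regions lie between 0.938 and 1.14.

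Cluster 3 leaned the other way at Nr2f1, by an amount within the range of other windows. Its openings were 1.31 times those expected from depth (1.11 to 1.54), those of the other cells 0.860 times (0.751 to 0.982), and the ratio was 1.53 (1.23 to 1.89). An open Nr2f1 region was found in 80.2% (70.8% to 87.6%) of cluster 3 against 44.7% (39.1% to 50.3%) of the other cells, beside a higher depth, for which 68.9% and 54.01% were expected. The ratio was 1.78 (1.28 to 2.44) among the lower title numbers and 1.33 (0.995 to 1.78) among the higher ones. The other cells here include cluster 2. Among windows of 200 kb on chromosomes 7 and 13 with at least 4 regions, the cluster 3 ratio had a median of 0.955. Their 95th percentile was 1.61, and the Nr2f1 ratio of 1.53 lay below it. By region, 5 of 6 Nr2f1 ratios were above 1, the highest being 2.29 at 6.75 kb (21 cells, 21.9%, against 20 other cells, 6.29%) and 2.17 at 17.2 kb (17 cells, 17.7%, against 17 other cells, 5.35%). The wide region at -27.6 kb was open in 47 cells (48.96%) of cluster 3 and 61 other cells (19.2%), a ratio of 1.77. The region at 12.9 kb, with 0.906, was the lowest. The median ratio was 1.63 over the Nr2f1 members and 1.20 over the Nr2f2 members, against 0.966 over the regions of chromosomes 7 and 13. None of the 6 was called higher, where 6.9% of chromosome 7 and 13 regions were, and none of the 12 members was called lower, where 3.59% were. With cells thinned to 1500 open regions, the wide region was called higher, with 19 cells of cluster 3 against 14 other cells (4.88%), as were 2.6% of chromosome 7 and 13 regions, and no member was called lower, where 0.158% were. Nr2f2 openings in cluster 3 were 1.08 times the 115.3 expected, those in the other cells 0.967 times the 259.5 expected, and the ratio was 1.11 (0.889 to 1.38), with regions from 0.888 at -13.7 and 1.68 kb to 1.56 at 64 kb.

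In cluster 1, the largest and shallowest, both loci were close to what depth gives. The ratio of cluster 1 over the other cells was 1.09 (0.883 to 1.34) at Nr2f1, with openings at 1.05 times the 168.1 expected in the cluster, and 0.980 (0.795 to 1.21) at Nr2f2, with openings at 0.989 times the 169.8 expected. Single regions ran from 0.790 at -27.6 kb to 1.48 at 12.9 kb for Nr2f1 and from 0.675 at -8.94 kb to 1.23 at 64 kb for Nr2f2. None of the 12 was called lower or higher in cluster 1, where 6.19% and 4.06% of the chromosome 7 and 13 regions were. The most widely open Nr2f1 regions had unlike profiles. The wide region was at 0.874, 0.692 and 1.44 times its expected share in clusters 1, 2 and 3, and the 12.9 kb region at 1.22, 0.680 and 0.934 times.

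**Figure D5:**
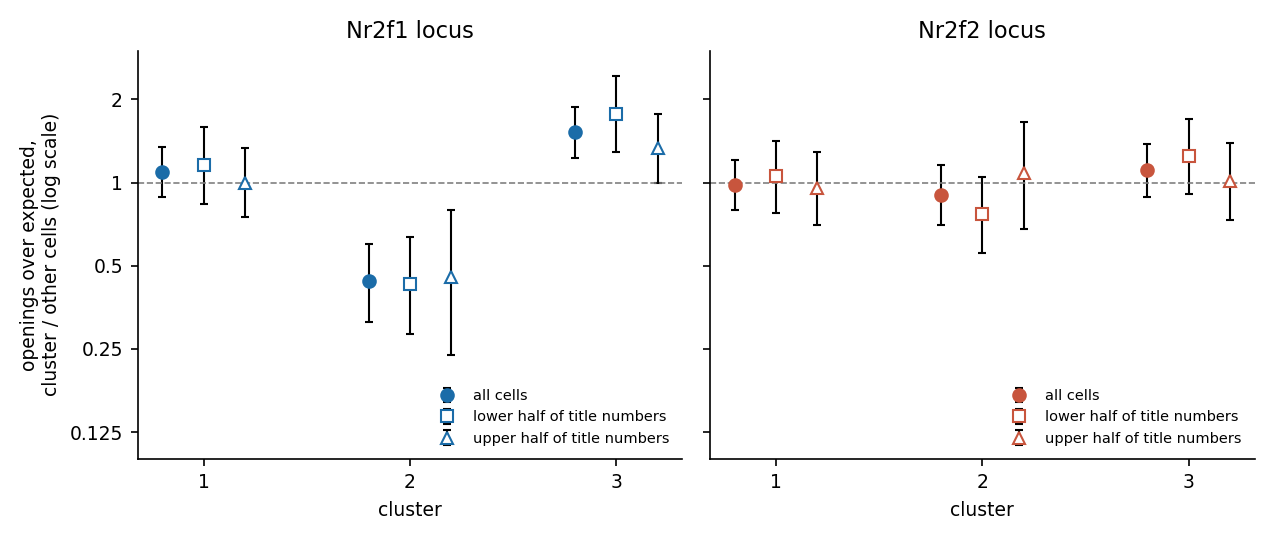
Openings over expected openings in a cluster, divided by the same in the other cells (vertical axis, log scale), for clusters 1 to 3 at each locus, over all cells (filled circles) and among cells with lower and higher title numbers (open symbols). Bars are counting intervals. Nr2f1 lies at 0.439, 0.431 and 0.454 in cluster 2, and every Nr2f2 interval includes 1.

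Within each of the 3 clusters, the co-opening ratio at Nr2f1 lay below the 1.27 over all cells, with intervals that overlap the all-cell interval. No lowering is thereby established. With depth fitted inside each cluster, the ratio for Nr2f1 pairs was 1.20 (0.972 to 1.46) in cluster 1, 1.19 (0.595 to 2.13, from 11 joint openings) in cluster 2 and 1.04 (0.866 to 1.24) in cluster 3. Between the loci it was 1.25 (1.10 to 1.42), 0.845 (0.601 to 1.16) and 1.02 (0.899 to 1.16) in clusters 1, 2 and 3. The interval for Nr2f1 with Nr2f2 lay above 1 in cluster 1 and included 1 in clusters 2 and 3. Pairs in 1 cell are not independent, so these intervals are too narrow. Counted by cell, with depth fitted over all cells, the ratio for both loci open was 1.11 (0.862 to 1.41) in cluster 1. It was 0.691 (0.438 to 1.04) in cluster 2 and 1.31 (0.996 to 1.69) in cluster 3, and every interval included 1. These expected counts use locus totals over all cells, so the ratios also carry each cluster's own Nr2f1 level. Nr2f1 was open in 35 cells of cluster 2 with 54.3 expected, and in 77 of cluster 3 with 61.7 expected. The ratios by cell therefore do not measure co-opening within a cluster. Whether the clusters differ in co-opening was not tested.

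The regions whose depth-corrected values went most closely with the Nr2f1 score over all cells, among 21653 autosomal regions of other chromosomes, lay on chromosome 3 from 64634853 to 64635689 (correlation 0.279), chromosome 4 from 142362806 to 142363670 (0.273), chromosome 12 from 111186393 to 111187077 (0.231), chromosome 2 from 38440150 to 38441082 (0.226) and chromosome 14 from 124435244 to 124436645 (0.218). For Nr2f2, among 21172 regions, they lay on chromosome 13 from 70235390 to 70236022 (0.244), chromosome 4 from 45486054 to 45486374 (0.214), chromosome 9 from 25016753 to 25017288 (0.212), chromosome 8 from 94317788 to 94318068 (0.207) and chromosome 19 from 28551878 to 28552461 (0.202). As the highest of many, these correlations lean high. The members of the other COUP-TF locus ranked lower. All 6 Nr2f2 regions correlated positively with the Nr2f1 score, from 0.0270 to 0.0788, where the median of all regions was 0.000760. None passed the 95th percentile of all regions, 0.103. All 6 Nr2f1 regions correlated positively with the Nr2f2 score, from 0.00336 to 0.117, and 3 passed the 95th percentile of 0.0826, those at 9.87, 12.9 and 17.2 kb.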

How the data were processed

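The deposited signal, a whole number per region and cell, was used as the authors gave it. It was read as summed aligned bases because 37.6% of the values above 0 equal 148, the bases of 1 read pair. MACS2 and mm9 are named, with no role, in the submitters' processing notes. How reads were aligned and duplicates treated is not given in the sources used here. Members and lists were chosen with earlier results of these data known.

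The probability that a region is open in a cell was fitted as 1 − exp(−region rate × cell rate), matching both totals. Clusters came from term-frequency weighting (scale 10000), singular value components 2 to 10 and k-means with 50 starts on 20144 regions (scikit-learn 1.9.0, Python 3.11.15). Cells with under 1000 fragments were left out of the clusters. The cell is the unit of counting for shares, intervals are exact at 95% and cover counting error only, and there was 1 sample, hence no test. Ratios of openings or of pairs can count 1 cell several times. Openings in 1 cell need not be independent, so the intervals of these ratios may be too narrow. The calls and the co-opening ratio were tested on simulated data. Named by rule were all members and, for each locus, the 5 most similar regions on other chromosomes. Other retinoid pathway genes and cell type markers had been listed, need a gene annotation on mm9, and were not analysed here. Sequences are from RefSeq on GRCm38.p6. Alternatives are given in the closing section.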

Additional observations from a re-analysis of the deposited data

How the results depend on the processing

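The ratios below are observed over depth-expected values, and no direction with an interval apart from 1 reversed in any alternative run. The shares of cells with an open region at Nr2f1, at Nr2f2 and at both were 52.8%, 55.7% and 36.1%. They became 15.4%, 18.8% and 5.06% with more than 1 fragment required, 73.1%, 73.6% and 55.8% in the deeper cells, and 41.9%, 41.7% and 22.9% without the most widely open region of each locus. Nr2f1 was open in 46.9% of cells with lower and 58.7% with higher title numbers. Co-opening within Nr2f1 was 1.27, and 1.56 and 1.06 among lower and higher title numbers and 1.07 without the 5 cells with most openings. Between the loci it was 1.16, and 1.06 with more than 1 fragment, 1.29 and 1.04 by title numbers and 1.03 without those 5 cells. The low Nr2f1 ratio in cluster 2 stayed between 0.237 (more than 1 fragment) and 0.475 over its 12 alternatives. The Nr2f1 ratio in cluster 3 was 1.94 with more than 1 fragment and 2.54 with cells thinned at random to 1500 open regions. That thinning also gave 0.778 for Nr2f1 in cluster 1 and 0.671 for Nr2f2 in cluster 2. Weighting openings to 1500 per cell, with no random draw, gave 1.61, 1.12 and 0.859 for these 3. The thinning also leaves out 33 shallower cells, and the cause of the gap was not tested. With 2 clusters requested, the part matched to cluster 1 had a Nr2f1 ratio of 2.12, since it also takes in most other cells and is set against cluster 2; no part matched cluster 3. Weighted openings and the removal of the 1 or 5 cells with most openings were chosen after seeing the data. Depth limits all values, since members were open in 7.95% to 32.5% of cells. No paired analysis was possible because all cells form 1 group.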

Other observations

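The depth-scaled ratio of cells with lower over those with higher title numbers ran from 0.492 to 1.85 over the 12 members. As the extremes of 12 small counts, both values lean away from 1. The lowest was the Nr2f1 region at 6.75 kb, open in 13 cells with lower numbers and in 28 with higher ones, with 19.9 and 21.1 expected from depth. The highest was the Nr2f2 region at 9.59 kb, with 21 and 12 open cells where 16.02 and 16.98 were expected. At the most widely open regions the numbers lay closer to depth, with 48 and 60 cells at -27.6 kb of Nr2f1 (52.5 and 55.5 expected) and 64 and 71 cells at 1.68 kb of Nr2f2 (65.7 and 69.3 expected). The part of title numbers in these values was not tested.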
